A study of Mus musculus with 2 samples.

Results

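The HoxB cluster is the row of homeobox genes on mouse chromosome 11 that runs from Hoxb1 to Hoxb9 and ends, after a gap, at Hoxb13. Its 10 genes were taken by symbol from the deposited expression table, which holds 17216 genes, and a gene with several transcript rows was represented by the row with the highest mean. All 10 had a row. The values come from 2 bulk mRNA libraries of small intestine crypts, the epithelial pits that hold stem and progenitor cells, with 1 library of each genotype. The mouse called wild type was C57BL/6 and carried AhCre, a Cre recombinase under a promoter that β-naphthoflavone switches on. The Eed knockout mouse was also C57BL/6, with the genotype AhCreEedfl/fl, so Cre removes floxed Eed. Both animals received 3 injections of β-naphthoflavone and were killed at day 15 after injection. The control therefore shares the Cre and the ligand with the knockout, and no source used here states the age or sex of the mice. Which cells the promoter reached, and in what fraction Eed was lost, was not measured in these files.

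Hox genes encode homeodomain transcription factors that give cells their position along the head to tail axis. Genes at the Hoxb1 end of the cluster act at the anterior end of the body and those at the Hoxb13 end act posteriorly, an arrangement called collinearity. In cells that do not use them, Hox clusters are a classical domain of Polycomb repressive complex 2 (PRC2), which methylates histone H3 at lysine 27, and Eed is the core subunit that binds this mark. In the gut, Hox genes are known mainly from the regional patterning of the embryonic tube and from its mesenchyme, and Hoxb13 is a gene of the hindgut, tail bud and prostate.

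The family is recognised by the homeobox. The 54 bases of coding sequence around the most conserved codons of the recognition helix are shown for Hoxb7, which is nearest to the common sequence of the cluster, and for Hoxb9 and Hoxb13, which are farthest from it. They were read 5′ to 3′ from GENCODE vM21 transcripts matched to the deposited rows, and capitals mark bases that differ from the most frequent base of the 10 genes at that place.
Hoxb7: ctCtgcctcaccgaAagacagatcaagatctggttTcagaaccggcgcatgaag
Hoxb9: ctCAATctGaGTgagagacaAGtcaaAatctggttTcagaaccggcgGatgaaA
Hoxb13: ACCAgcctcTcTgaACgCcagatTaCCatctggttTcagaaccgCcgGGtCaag
Hoxb13 differed from the most frequent base at 17 of the 54 places, Hoxb9 at 13 and Hoxb7 at 3. Whole transcripts were compared for all Hox genes with a row except Hoxa9, which had no matched transcript. The longest run that Hoxb13 shared exactly with any of the others was 17 bases (with Hoxa4). For Hoxb4 it was 52 bases (with Hoxa6), for Hoxb9 50 (with Hoxc9), for Hoxb3 47 (with Hoxd3), and for the other members between 23 and 37 bases. No source used here states the read length, so whether reads from such runs were shared between genes could not be settled.

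Depth was 6970733 reads for the wild type and 5918162 for the Eed knockout. These are reads recovered from the deposited values and summed over all transcript rows, not all reads sequenced or mapped. With 1 library per genotype there is no replicate check, no test of genotype was made, and every interval given is an exact 95% interval for counting error alone. For Eed itself the wild type gave 588 reads and the knockout 183, a 3.08-fold lower level (2.61 to 3.66). Epithelial markers checked the labelled tissue: all 7 were detected in both libraries, with 21043 and 19769 reads in sum, and none differed by 2-fold. Reads are given below as counted, wild type first, and ratios use the deposited scaling.

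The cluster was almost undetected in the wild-type library and had a clear signal in the Eed knockout library. Summed over the 10 genes the wild type had 36 reads and the Eed knockout 1770, a 51.2-fold higher level (36.9 to 73.4). No member had more than 8 reads in the wild type, and 3 members had none, as did 8.75% of all genes. In the knockout library 9 of the 10 members had at least 14 reads, and Hoxb1 had 1. A gene was called where the log2 ratio, on the log2(value + 1) scale, reached 1 in either direction and the mean over both libraries was 20 normalized reads or more. By this rule 7 members could be called, and all 7 were at least 2-fold higher, against 11.2% of the 10879 genes of that level, while 3.58% of those genes were called lower. All 7 were also at least 4-fold higher, against 5.22% of genes. These 7 passed the level only through the knockout library, so the count by itself says little, and all 10 members are accounted for in what follows. Taking every member, with a library at 0 reads set to a floor of 3 reads, 9 of 10 were at least 2-fold higher and none was lower, against 17.5% of the genes with more than 3 reads in a library. Hoxb1 could not be placed.

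**Figure D1:**
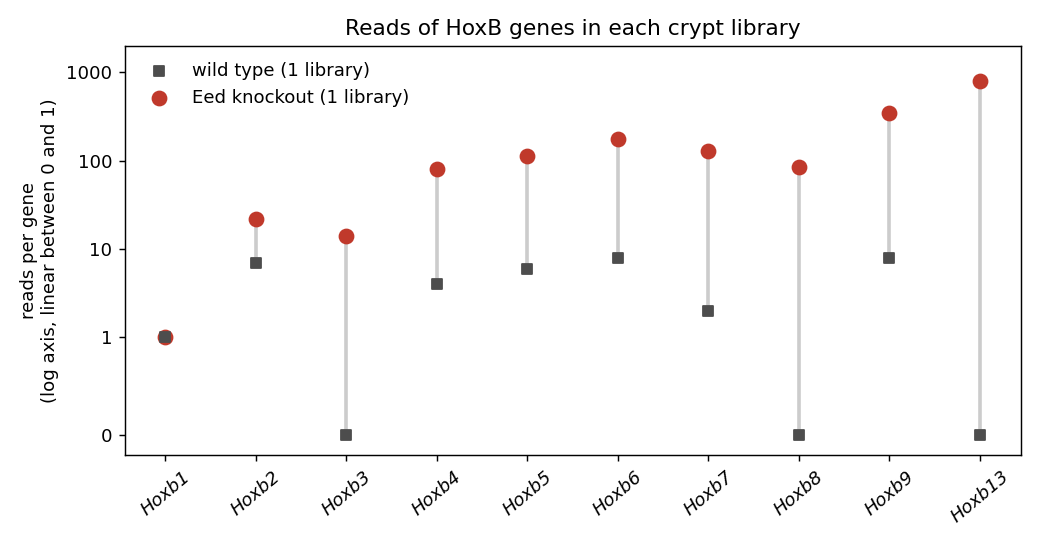
Reads per HoxB gene in the wild-type library (grey squares) and the Eed knockout library (red circles), 1 library each, on a log axis that is linear between 0 and 1, with genes in cluster order. Wild-type values lie between 0 and 8 reads for all genes. Knockout values range from 1 read for Hoxb1 to 803 for Hoxb13, with dips at Hoxb3 and Hoxb8.

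Hoxb13, the most posterior member, had 0 wild-type and 803 knockout reads, at least 279-fold higher against a floor of 3 reads. Its log2 ratio of 8.70 ranked 1 among the 10879 genes. The 3 genes outside the cluster with the nearest log2 ratios were Igf2bp1 at 8.22, Sim2 at 7.58 and En2 at 7.43, at ranks 2, 3 and 4. These 3 also had 0 wild-type reads, so their order follows the knockout reads alone, in 2 libraries only. Per length, Hoxb13 stood at 372 normalized reads per kilobase in the knockout library (346 to 398). On the same scale in that library, the intestinal homeobox gene Cdx2 stood at 458 and Cdx1 at 622. Hoxb13 thus lay below both of these factors, which maintain intestinal identity. It ranked 1666 among 16306 genes with a known transcript length. Its adjusted p in the authors' deposited table is 7.23e-15, the smallest of any member.

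The middle and posterior block from Hoxb4 to Hoxb9 was also higher, gene after gene. Hoxb9, which patterns the thoracic skeleton, had 8 and 346 reads, 45.1-fold higher (22.6 to 105). Hoxb8, known from myeloid progenitors and from the grooming phenotype of mutant mice, had 0 and 86 reads, at least 29.9-fold higher. These neighbours differed in the knockout library, where Hoxb9 stood at 137 normalized reads per kilobase (123 to 152) and Hoxb8 at 33.3 (26.7 to 41.1). Hoxb7, active in the ureteric bud of the kidney, had 2 and 128 reads, 66.7-fold higher (18.1 to 557). Hoxb6, a gene of the lateral plate mesoderm, had 8 and 176 reads, 22.9-fold higher (11.4 to 53.9). All 4 had 8 wild-type reads or fewer, so the ratios are wide in their intervals, but each interval lies above 10. Hoxb5, which acts in the neural crest cells that form the enteric nervous system, had 6 and 113 reads, 19.6-fold higher (8.74 to 54.6). Hoxb4, best known for expanding blood stem cells, had 4 and 81 reads, 21.1-fold higher (7.93 to 79.3). The intervals of Hoxb4, Hoxb5, Hoxb6, Hoxb7 and Hoxb9 overlap one another.

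The anterior end showed less. Hoxb3, a hindbrain gene, had 0 and 14 reads in the row used, at least 4.86-fold higher, and its other row had 0 and 3. Hoxb2, which acts in the hindbrain and its facial motor neurons, had 7 and 22 reads, a ratio of 3.28 (1.35 to 9.08). Hoxb1, which sets the identity of a hindbrain segment, had 1 read in each library and gave no ratio. None of these 3 reached a mean of 20 normalized reads. For Hoxb2 and Hoxb3 the counted exons also overlap those of Hoxb3os, an antisense RNA, over 58.5% and 70.5% of their bases. The library kit does not mark strand, so reads of these genes and of Hoxb3os cannot be told apart. Hoxb5 shares 5.28% of its exonic bases with Hoxb5os, and the remaining 7 members share none with another annotated gene.

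Levels per length put the members in an order that broadly follows their place in the cluster. In the knockout library Hoxb13 led at 372 normalized reads per kilobase, followed by Hoxb9 at 137, Hoxb6 at 136, Hoxb7 at 101 and Hoxb5 at 60.9. Then came Hoxb8 at 33.3, Hoxb4 at 32.2, Hoxb2 at 13.8, Hoxb3 at 4.48 and Hoxb1 at 0.489. Hoxb13 stood 2.71-fold above Hoxb9 and 26.9-fold above Hoxb2. Between neighbours in this order, the exact interval of the ratio of levels included 1 for Hoxb9 over Hoxb6 (0.839 to 1.22) and for Hoxb8 over Hoxb4 (0.754 to 1.42), and lay above 1 for the other 7 pairs. The closest of these was Hoxb6 over Hoxb7, a ratio of 1.34 (1.06 to 1.70). The pairs were formed by sorting on these same levels, so each ratio is at least 1 by construction and the intervals do not test the order. Hoxb8 and Hoxb3 each stood lower than the genes on both of their sides in the cluster. For Hoxb3 this rests on 14 reads of the row used, over the length of that transcript, without the 3 reads of its other row. The overlap with Hoxb3os given above also limits this level. In the wild-type library no member exceeded 5.93 normalized reads per kilobase (Hoxb6), and no order could be read from 8 reads or fewer.

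**Figure D2:**
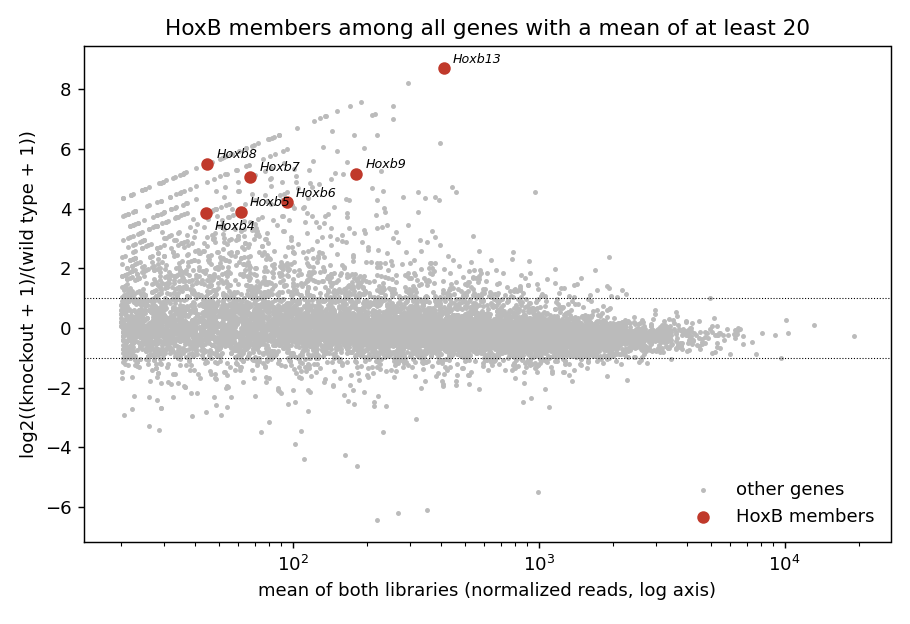
Log2 ratio of the Eed knockout over the wild-type library, on the log2(value + 1) scale, against the mean of both libraries in normalized reads on a log axis, for the 10879 genes with a mean of at least 20. The 7 HoxB members of that level (red) lie between 3.84 and 8.70, Hoxb13 at the top of all genes, and dotted lines mark 2-fold.

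The median log2 ratio of the 7 members was 5.07, or 4.90 with members at 0 wild-type reads set to the floor, beside -0.11 for all genes of that level. Over all 10 members it was 4.06, beside 0.00 for all 17216 genes. Among all genes of that level the lowest-ranked of the 7 by log2 ratio was Hoxb4, at rank 193. The 7 reached that level only through the knockout library, so this selection by itself favours a high median and high ranks. The authors' deposited table lists 5 members with an adjusted p below 0.05 (Hoxb6, Hoxb7, Hoxb8, Hoxb9 and Hoxb13), against 0.890% of its 18766 rows called higher. The authors' deposited table gives Hoxb5 an adjusted p of 0.119 and Hoxb4 one of 0.327. Those calls compare 2 libraries and carry no measure of variation between animals.

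Promoter sequence was at hand for 3 members: Hoxb8 and Hoxb4, which were higher and had similar knockout levels per length, and Hoxb1, which was not detected beyond 1 read. Each window holds 250 bases before and 50 after the gene start in RefSeq (GRCm38.p6, plus strand), and capitals mark CG dinucleotides (C followed by G on the same strand), whose density defines the CpG islands that PRC2 is known to occupy.
Hoxb8: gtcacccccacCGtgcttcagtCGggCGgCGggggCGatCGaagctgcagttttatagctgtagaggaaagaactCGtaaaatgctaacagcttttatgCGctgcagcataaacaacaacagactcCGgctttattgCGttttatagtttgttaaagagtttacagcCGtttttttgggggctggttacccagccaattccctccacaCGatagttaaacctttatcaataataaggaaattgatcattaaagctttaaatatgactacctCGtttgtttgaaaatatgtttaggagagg
Hoxb4: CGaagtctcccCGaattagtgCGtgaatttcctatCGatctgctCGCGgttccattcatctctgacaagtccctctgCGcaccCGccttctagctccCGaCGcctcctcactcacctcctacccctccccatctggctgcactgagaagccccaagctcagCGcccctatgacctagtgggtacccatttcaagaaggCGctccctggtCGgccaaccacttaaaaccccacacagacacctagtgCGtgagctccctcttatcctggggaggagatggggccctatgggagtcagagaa
Hoxb1: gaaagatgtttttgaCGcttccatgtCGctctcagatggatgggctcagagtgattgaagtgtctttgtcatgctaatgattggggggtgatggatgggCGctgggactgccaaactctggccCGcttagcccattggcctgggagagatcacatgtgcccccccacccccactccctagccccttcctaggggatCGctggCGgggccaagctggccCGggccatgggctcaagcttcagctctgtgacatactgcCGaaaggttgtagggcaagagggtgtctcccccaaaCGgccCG
The Hoxb8 window (chr11:96281655-96281954) holds 13 CG dinucleotides, the Hoxb4 window (chr11:96318017-96318316) 14 and the Hoxb1 window (chr11:96365508-96365807) 10. The median over 32851 promoter windows of the same length was 7, and 37.9%, 36.3% and 43.5% of all windows held at least as many as Hoxb8, Hoxb4 and Hoxb1. The windows of the higher genes and of Hoxb1 therefore hold similar numbers, none of them extreme. GC content was 42.3% for Hoxb8, 58.0% for Hoxb4 and 59.3% for Hoxb1, beside a median of 52.7%. The letters TTTATG, part of the motif of caudal-type factors such as Cdx2, occur 2 times in the Hoxb8 window, counting both strands, and not in the other windows, while 11.9% of all windows hold them at least once.

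Between the members lay 2 non-coding rows. Gm53, a long non-coding RNA gene between Hoxb9 and Hoxb13, had 3 and 193 reads, a ratio of 67.0 (22.6 to 328). Mir196a-1, the locus of a microRNA that targets Hox transcripts, had 0 and 28 reads over its hairpin, at least 9.73-fold higher, but its mean was below 20 and it was not called. An mRNA library does not measure the mature microRNA. The mature 5′ strand made from it is shown, with the seed in capitals (RefSeq, GRCm38.p6), because it is known to cleave Hoxb8 mRNA.
mmu-miR-196a-5p: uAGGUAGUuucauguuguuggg
Gm53 reached an adjusted p of 0.000511 in the authors' deposited table, and Mir196a-1 one of 1. No other non-coding gene with a row lay between Hoxb1 and Hoxb13.

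Most genes next to the cluster were unlike it. Of the 10 genes with a row on each side, 13 of 20 had a mean of at least 20, and 3 of these (23.1%) were higher by 2-fold or more and none lower, beside 11.2% of all genes. The other 10 lay within 2-fold, and the median log2 ratio of the 13 was 0.00. On the Hoxb1 side the 3 nearest genes were low or close to even. Skap1, an adaptor of T cells, had 0 and 1 read, Snx11, a sorting nexin, 16 and 11, and Cbx1, which encodes a heterochromatin protein, 440 and 394 (ratio interval 0.813 to 1.07). On the Hoxb13 side the next gene, Ttll6, a tubulin polyglutamylase, had 2 and 92 reads, a ratio of 47.9 (12.9 to 402). Beyond Ttll6, the autophagy receptor gene Calcoco2 had 1 and 0 reads and Atp5g1, an ATP synthase subunit, 47 and 45. After Ttll6 none of the next 5 genes was called, and 4 of them lay within 2-fold.

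Farther out, among genes with a mean of at least 20, single ones stood apart from their neighbours. Igf2bp1, the seventh gene on the Hoxb13 side and a fetal RNA-binding protein, had 0 and 576 reads, at least 200-fold higher, while Gip just before it had 604 and 629 and B4galnt2 just after it 4837 and 2842. Copz2, a coatomer subunit and the sixth gene on the Hoxb1 side, had 35 and 347 reads, 10.3-fold higher (7.29 to 15.1). The authors' deposited table gives Igf2bp1 an adjusted p of 3.77e-12, Copz2 one of 0.00620 and Ttll6 one of 0.0924.

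**Figure D3:**
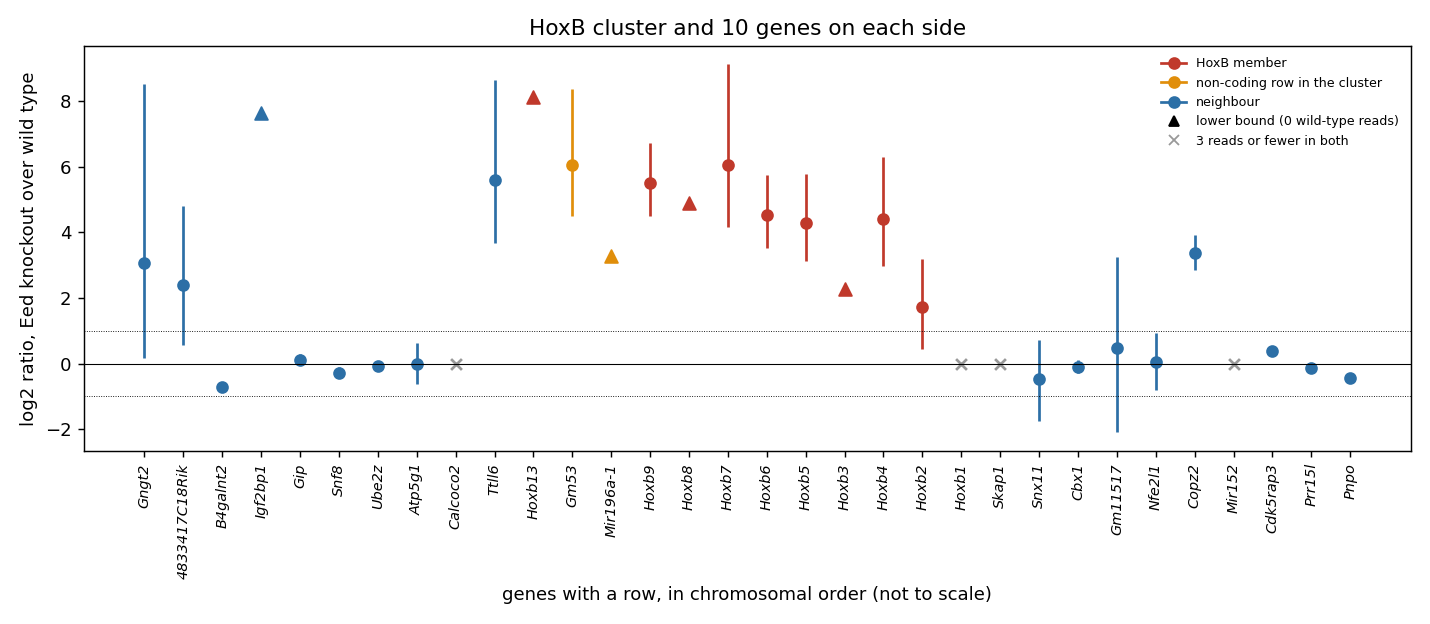
Log2 ratio of the Eed knockout over the wild-type library, from reads after scaling, for the HoxB members (red), the non-coding rows in the cluster (orange) and 10 genes on each side (blue), in chromosomal order by gene start and not to scale. Points carry 95% counting intervals, and triangles are lower bounds against a floor of 3 wild-type reads. Crosses at 0 mark genes without more than 3 reads in either library, and dotted lines mark 2-fold. High values run from Ttll6 to Hoxb4, with Igf2bp1 and Copz2 apart from them. On few reads, 4833417C18Rik and Gngt2 also lie above 2-fold.

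HoxB held 49.4% of all Hox reads of the knockout library (47.8 to 51.1, exact Clopper-Pearson), and Hoxb13 alone 22.4% (21.1 to 23.8). Within HoxB, Hoxb13 made up 45.4% of the reads (43.0 to 47.7). In the wild-type library HoxB held 36 of 110 Hox reads, 32.7% (24.1 to 42.3). These shares are not corrected for transcript length. Without Hoxb13 the remaining 9 genes still had 36 wild-type and 967 knockout reads. In sum, HoxA had 60 and 677 reads, HoxC 2 and 418, and HoxD 12 and 716. The summed ratio of HoxB was 51.2 (36.9 to 73.4). That of HoxA was 11.8 (9.02 to 15.6), and these intervals do not overlap. The HoxB interval overlapped those of HoxC (59.9 to 1805) and HoxD (35.4 to 121). By the fold rule 6 of 6 HoxA, 4 of 4 HoxC and 5 of 5 HoxD genes were also higher, against 11.2% of all genes of that level. Their median log2 ratios were 4.41, 5.18 and 4.75, beside 5.07 for HoxB. Most of these genes, too, reached that level only through the knockout library. The paralogs of Hoxb13 were all at 0 reads in the wild-type library, with 70 knockout reads for Hoxa13, 31 for Hoxc13 and 170 for Hoxd13. Per length in the knockout library these came to 54.6, 12.9 and 69.9 normalized reads per kilobase, below the 372 of Hoxb13.

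**Figure D4:**
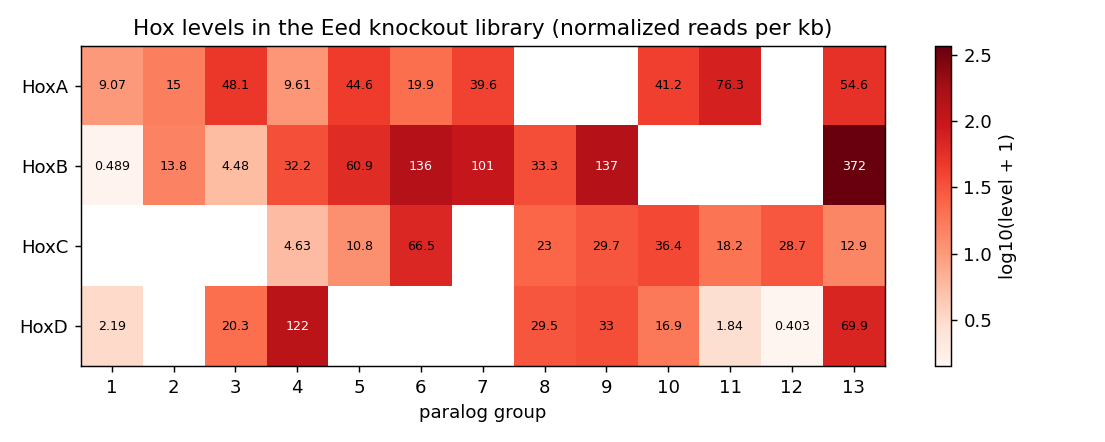
Level of each Hox gene in the Eed knockout library, in normalized reads per kilobase, by cluster and paralog group, with the colour on a log10(level + 1) scale; blank cells have no gene, no row or, for Hoxa9, no transcript length. Hoxb13 at 372 is the highest cell, and HoxB also holds the next highest, Hoxb9 at 137 and Hoxb6 at 136.

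Partners and regulators of Hox genes were mostly close to even. Of 8 cofactor genes of the Pbx, Meis and Pknox families, which bind DNA together with Hox proteins, 5 had a row and 4 a mean of at least 20, and none differed by 2-fold (median log2 ratio 0.23). Pbx2 had 586 and 591 reads, Pbx3 83 and 105, and Meis1 0 and 6. Of 20 upstream regulators, 15 had a mean of at least 20, with 1 higher and 1 lower. Bmi1, a subunit of the partner complex PRC1, was the higher one, at 352 and 841 reads and a ratio of 2.49 (2.20 to 2.83), and Eed was the lower one. Kmt2a, the methyltransferase that keeps Hox genes active, had 2228 and 1711 reads. Of the caudal-type factors, Cdx1 had 1179 and 1066 reads and Cdx2 had 1964 and 1015, a ratio of 0.539 (0.499 to 0.581). The retinoic acid receptor gene Rarg had 1 and 21 reads, too few to be called. The median of the 15 was 0.15.

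Hox genes are also expressed by other cells of the gut wall, and markers of some of these were higher in the same library. Of 9 fibroblast and smooth muscle markers 8 had a row, with 14 wild-type and 510 knockout reads in sum. Most of these knockout reads were of collagens: Col1a1 had 1 and 155 reads, Col1a2 0 and 124, and Col3a1 6 and 198. Other defining markers of these cells were near 0 in the transcript row used for each gene. Pdgfra had 1 and 0 reads, Dcn 0 and 1, Acta2 4 and 8 and Des 2 and 8, while Lum had 0 and 16. Reads of other transcripts of these genes may not be counted in that row, so low counts there do not show absence. Endothelial markers had 18 and 36 reads in sum, of which Kdr had 2 and 21 and Tek 12 and 10. Neural markers had 41 and 89, of which Ret was called higher at 20 and 68 while Tubb3 had 21 and 20. Immune markers had 128 and 355, of which Lyz2 was called higher at 27 and 230 while Cd3e had 82 and 79. The other immune markers had few reads, with 8 and 12 for Ptprc, 6 and 7 for Cd79a and 5 and 27 for Emr1. All 6 exocrine pancreas genes were higher, with 42 and 1433 reads in sum. Of 7 markers of colon and rectum 4 had a row, all within 2-fold, with 3481 and 2327 reads in sum. In bulk crypts, fewer or more cells of a type and less or more RNA per cell cannot be told apart, and the part of these other cells in the HoxB reads was not tested.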

How the data were processed

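Bulk mRNA was sequenced from 1 wild-type and 1 Eed knockout crypt sample, with a TruSeq version 2 kit per the labels' protocols. The submitters' processing notes name TopHat, mm9 and DESeq, without versions. The deposited table holds 18766 RefSeq transcript rows. Its deposited signal columns are reads over a size factor, going by their values: 100% of values in both libraries are whole multiples of the lowest value (tolerance 1e-06). Since 0 rows stand at 1 step in both libraries, every row appears to carry 1 added read, and reads are steps minus 1. The authors' deposited columns also give the ratio (fold change), its log2 and p-values.

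Rows were matched to RefSeq (GRCm38.p6) by accession (98.6% of rows) for names and gene order only, since the builds differ. Transcript lengths, homeobox windows and exon overlaps came from GENCODE vM21. Ratios use recovered reads with exact Clopper-Pearson 95% intervals, levels use exact Poisson intervals, and a library at 0 was set to a floor of 3 reads. Intervals and floors cover counting error only, because PCR copies without molecular identifiers are not separate molecules. Genes with few reads have wide intervals at these depths of 6970733 and 5918162 reads. Named genes were the 10 members, non-coding rows between them, the neighbours that passed the fold rule and the 3 nearest on each side, the paralogs of Hoxb13, the 3 genes nearest to it in log2 ratio, Eed and the Cdx genes. Other names come from the marker and regulator lists, or were singled out after their values were seen. The latter were Gip, B4galnt2, Sp6, Sp2, Scrn2, Fam117a, 4833417C18Rik, Gngt2, Nxph3, Tbkbp1, Tbx21 and Lrrc46. The members and lists were chosen with earlier results of these data known. A cofactor of the original list is not reported here. Functions were tested on simulated data. The software was SciPy 1.17.1, pandas 2.3.3, NumPy 2.4.6 and Matplotlib 3.10.9 under Python 3.11.15.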

Additional observations from a re-analysis of the deposited data

How the results depend on the processing

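No paired analysis was possible because each genotype has 1 library and the labels give no replicate numbers. Alternatives were other pseudocounts, scalings, filters on the mean, a 4-fold rule, summed rows, the mean of members, other numbers of neighbours, and 2 chosen after seeing the data: removing the added read, and an exact binomial test on the reads with Benjamini-Hochberg adjustment. Other scalings shifted log2 ratios by 0.05 to 0.18. The count of 7 higher members became 2 with a mean of at least 100, where only Hoxb9 and Hoxb13 were left, and all others kept it between 7 and 9. Their median of 5.07 became 3.34 with a pseudocount of 10, 6.94 at a mean of 100 or more and 4.06 with no filter. Hoxb13 went from 8.70 to 6.24 with a pseudocount of 10. These follow from how each alternative weighs low reads or which members it keeps. The count of 3 higher neighbours became 5 with a mean of at least 5, with no filter or with 20 neighbours on each side, and 1 with 5 on each side. The binomial test, which compares these 2 libraries and not genotypes, called 9 members and 5 neighbours higher, and 2955 of 17216 genes higher (17.2%) and 3976 lower (23.1%). Of 40 recomputed values of single members other than Hoxb1 and Hoxb13, 33 stayed within their counting interval, 7 moved and none changed sign. Depth limits Hoxb1, Hoxb2 and Hoxb3, which rest on 22 reads or fewer per library.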

Other observations

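Farther from the cluster, genes with a mean of at least 20 gave a similar pattern of single high genes among others within 2-fold. Among the 20 genes with a row on each side, 25 had a mean of at least 20, of which 5 were higher and none lower. Beside Ttll6, Igf2bp1 and Copz2 these were Sp6, a zinc finger factor of tooth and skin, at 4 and 154 reads, 40.1-fold higher (15.4 to 149), and Fam117a at 135 and 317 reads, 2.45-fold higher (1.99 to 3.02). Sp2, next to Sp6, had 0 and 2 reads, and Scrn2 on its other side 588 and 420. Among genes with a mean below 20, which were not called, 4833417C18Rik had 3 and 15 reads, Gngt2 1 and 8, Nxph3 4 and 15 and Tbkbp1 2 and 25. Others below it were nearer to even, with 7 and 10 for Tbx21 and 5 and 5 for Lrrc46. These genes were named after their values were seen. The authors' deposited table gives Sp6 an adjusted p of 0.00660.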
